A study of Mus musculus with 8 samples.

Results

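The 10 genes described here are autosomal imprinted genes at 7 separate loci: Peg3, Zim1 and Usp29 on chromosome 7, Plagl1 on chromosome 10, Peg10 and Sgce on chromosome 6, Igf2r on chromosome 17, Nnat and Gnas on chromosome 2, and Impact on chromosome 18. They were chosen by name, with earlier results of these data known. All 10 had a value among the 21078 protein-coding genes that could be scored. The cells were mouse embryonic stem cells of the E14Tg2a line whose CTCF carries an auxin-inducible degron, and their replication timing was measured. Treated cells were kept in 500 µM of an auxin (indole-3-acetic acid) over 2 days, and control cells of the same degron line were left without it. DNA labelled with a BrdU pulse of 2 h was sorted into early and late S phase. The 8 libraries were joined pairwise into 2 auxin and 2 control profiles. Scores are given per 6-kb window, and a higher score means earlier replication. Each gene's value is the mean of the windows over its body. No source used here states the log base or scale of the score. All differences below are therefore in score units, of which the SD over all windows is 2.1.

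An imprinted gene is expressed mainly from the allele inherited from one parent. The choice is set by DNA methylation laid down in the germ line at control regions, and at some of these regions CTCF binds the unmethylated allele and acts as an insulator. Imprinted domains are also known as places where the alleles can replicate at different times in S phase. The profiles average both alleles, so each score is a mean over the maternal and the paternal copy, and a difference between alleles was not measured.

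Whole-genome limits touch every value below. Depth per profile is unknown, since the deposited tables hold no read counts. Whether replicates were grown as separate cultures is not labelled, and the p-values therefore cover only the spread between these samples, possibly a technical one. Scores change smoothly from one window to the next, so windows of a gene are not separate measurements. Counts of windows with groups apart are given below without a share over all windows. No cells without the degron were given auxin here, so auxin itself and CTCF loss cannot be told apart, and CTCF protein was not measured. Quantile normalization gives all 4 profiles the same distribution, so a shift of the whole genome cannot be seen. The 6 pluripotency genes Pou5f1, Nanog, Sox2, Zfp42, Esrrb and Klf4 had levels between 2.25 and 3.06 and were all early. These are timing scores and not expression, so the identity of the cells was not checked by them.

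Some members start close to each other and share 1 window of 6 kb. Peg3 and Usp29 are transcribed in opposite directions from starts so close that their gene bodies are 96 bases apart, and Peg10 and Sgce are arranged in the same way with 101 bases between them. Of the 250 bases before to 50 bases after each start that RefSeq gives on GRCm38.p6 (the same coordinates as mm10), the window of Peg3 (chr7:6730370-6730669, minus strand) and that of Usp29 (chr7:6730333-6730632, plus strand) share 263 bases. The first sequence below is shown for this overlap, and its capitals are the bases that both windows cover. The second, the most upstream start of Gnas (chr2:174284070-174284369, plus strand), is shown because it alone held the searched CTCF core, which is in capitals. The third, Plagl1 (chr10:13090582-13090881, plus strand), is shown as a CpG-rich start of the member with the next largest difference, with its CpG pairs in capitals. The Gnas and Plagl1 sequences were chosen after their values were seen.
Peg3: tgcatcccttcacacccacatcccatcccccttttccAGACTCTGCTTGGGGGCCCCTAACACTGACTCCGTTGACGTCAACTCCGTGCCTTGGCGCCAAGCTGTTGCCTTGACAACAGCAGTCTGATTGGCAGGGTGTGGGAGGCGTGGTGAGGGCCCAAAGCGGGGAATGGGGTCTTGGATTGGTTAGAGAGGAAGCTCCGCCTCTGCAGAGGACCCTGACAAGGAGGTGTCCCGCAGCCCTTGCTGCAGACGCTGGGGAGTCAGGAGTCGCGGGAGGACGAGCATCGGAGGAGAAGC
Gnas: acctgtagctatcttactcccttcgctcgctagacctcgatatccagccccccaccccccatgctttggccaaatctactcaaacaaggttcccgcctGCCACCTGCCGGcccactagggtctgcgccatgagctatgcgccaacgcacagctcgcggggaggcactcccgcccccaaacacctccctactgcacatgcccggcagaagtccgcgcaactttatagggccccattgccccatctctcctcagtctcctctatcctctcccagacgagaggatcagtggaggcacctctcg
Plagl1: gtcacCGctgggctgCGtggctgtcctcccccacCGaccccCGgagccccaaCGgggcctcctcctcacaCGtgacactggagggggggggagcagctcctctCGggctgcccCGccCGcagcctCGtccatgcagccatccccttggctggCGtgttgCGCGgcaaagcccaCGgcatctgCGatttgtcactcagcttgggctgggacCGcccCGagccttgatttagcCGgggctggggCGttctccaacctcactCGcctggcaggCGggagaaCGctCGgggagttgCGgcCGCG

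A core of the CTCF motif (2 C, 3 free bases, AG, 2 free bases, GGC) was searched on both strands. Start windows on chromosome 18, where Impact lies, were left out of this search and of the shares below. The CTCF core was found in 1 of the 10 start windows searched. These belong to 7 of the members (Nnat, Gnas with 4 starts, Zim1, Peg3, Usp29, Plagl1 and Igf2r). Over all genes searched it was found in 8.61% of 32851 start windows. The CTCF match lies at position 99 of the Gnas sequence on the opposite strand. Plagl1 held 26 CpG pairs, Peg3 13, and the most downstream Gnas start (chr2:174329756-174330055) 40, against a median of 7 over all start windows searched. A narrow YY1 core, GCCATNTT, searched in the same way, was in 0 of the 10 windows and in 6.05% of all start windows searched. A match of these letters, or none, says nothing of binding, which the files do not measure.

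By the mean of the 4 profiles, Nnat was the earliest at 3.65, followed by Gnas at 1.302, Igf2r at 0.90, Peg10 at 0.63, Sgce at 0.55, Impact at 0.37 and Plagl1 at 0.27. The Peg3 locus was the latest, with Usp29 at -0.22, Zim1 at -0.41 and Peg3 at -0.43. With early set above 0.5 and late below -0.5, 5 members were early, 5 were middle and 0 were late. Over all scored genes, 67.1% were early, 9.02% middle and 23.9% late, with a median level of 1.87 against 0.46 for the members.

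In all 4 profiles Nnat scored highest, then Gnas, then Igf2r. For the steps from Nnat to Gnas, Gnas to Igf2r and Igf2r to Peg10, the 4 scores of the earlier gene all lay above those of the later one. Below Peg10 the scores of neighbours in the order overlapped. Peg10 and Sgce differed by 0.082 on average and changed places in 1 profile, and Zim1 and Peg3 differed by 0.020 and did so too. Impact and Plagl1 stood apart by 0.10 on average, but Plagl1 was the earlier of them in 1 auxin profile.

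**Figure D1:**
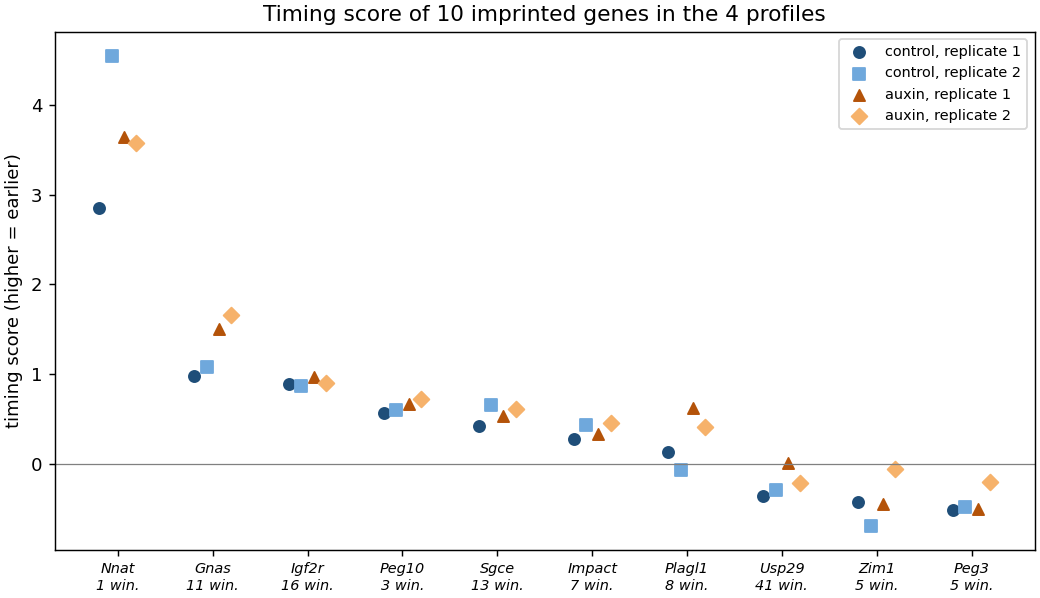
Timing score (vertical axis, score units, higher is earlier) of each imprinted gene in the 4 profiles, ordered by mean, with the number of 6-kb windows under each name. Each symbol is 1 profile: Nnat shows control scores of 2.85 and 4.55, and both auxin scores of Gnas lie above both of its control scores.

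At the Peg3 locus (chromosome 7, 6674444 to 6967220), the 3 genes lie in a low stretch of the profile, with means just below 0. Bins fell to this stretch from 2.48 (6300001 to 6350000) and rose only to 0.43 (7050001 to 7100000) on its other side. Peg3, a paternally expressed gene for a zinc finger DNA-binding protein, scored -0.52 and -0.49 in control and -0.50 and -0.21 with auxin. Its neighbour Zim1, a maternally expressed zinc finger gene, scored -0.43 and -0.70 in control and -0.45 and -0.057 with auxin. In both genes the groups overlapped, because auxin replicate 1 lay between the control scores and auxin replicate 2 above them. Usp29, a paternally expressed gene of the deubiquitinase family, extends over 237 kb and 41 windows, and scored -0.36 and -0.30 in control and 0.0050 and -0.22 with auxin. Its groups did not overlap, and the auxin profiles were both above the controls in 22 of its windows, with 0 windows the other way. Usp29 and Peg3 share 1 window, so their values are not independent.

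Within the Peg3 neighbourhood, timing varied far more between places than between treatments. The 50-kb bins from 500 kb before to 500 kb after the locus ranged from -1.81 to 2.48, while their differences between auxin and control ran from -0.35 to 0.39. Over the body of Usp29 the mean score rose from -0.43 at its start, next to Peg3, to 0.21 at its far end. Zim2 and Zim3, annotated as noncoding in the table used, scored -0.59 ± 0.28 and 0.067 ± 0.0087 in control and -0.16 ± 0.19 and 0.29 ± 0.42 with auxin (SD, n = 2), and were not tested.

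Plagl1 (chromosome 10, 13090832 to 13131694), which encodes a zinc finger transcription factor also called Zac1 and is expressed from the paternal allele, sits on a steep fall from early to late. Its control scores were 0.13 and -0.070, and its auxin scores 0.62 and 0.41. All 8 of its windows had both auxin profiles above both controls. The difference at Plagl1 was 0.49 (SE 0.21, 95% interval -0.018 to 0.99), which did not pass in limma (adjusted p = 0.304, unadjusted p = 0.0564). Along the gene the mean score fell from 0.56 at its start to -0.0049 at its end, so that the position where the score crosses 0 lay 2.5 kb inside its far end. Timing there changed by -0.88 per 100 kb, fitted over 500 kb, a steeper value than at 95.8% of genes.

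Peg10 and Sgce (chromosome 6, 4674350 to 4760517), a paternally expressed pair, kept nearly the same scores in both groups. Peg10, a gene derived from a retrotransposon that is needed for the placenta, scored 0.56 and 0.60 in control and 0.67 and 0.72 with auxin. Its groups lay apart in the mean of its windows and in 2 of the 3, with a mean difference of 0.11. Sgce, which encodes epsilon-sarcoglycan of the dystrophin-associated complex, scored 0.42 and 0.66 in control and 0.53 and 0.61 with auxin, with both auxin scores between the control scores. The limma 95% intervals of the difference ran from -0.35 to 0.58 for Peg10 and from -0.46 to 0.53 for Sgce, and both include 0.

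The Peg10 and Sgce pair lies on a long rise from late to early. Bins climbed from -2.83 (4200001 to 4250000) to 1.06 (4900001 to 4950000). Other genes reported as imprinted at this domain spanned late to early levels. Tfpi2, a protease inhibitor gene, scored -2.44 ± 0.063 in control, Calcr, the calcitonin receptor gene, -1.39 ± 0.076, Casd1 0.046 ± 0.010, and Ppp1r9a, a neuronal actin-binding gene, 0.82 ± 0.17 (SD, n = 2). Asb4 and the paraoxonase genes Pon1, Pon2 and Pon3 lay between 0.82 and 1.13. With auxin these 9 domain genes, Dlx5 included, were lower in 8 cases, and 0 passed in limma. The largest difference was at the homeobox gene Dlx5 (-0.88, adjusted p = 0.175 in limma, 2 windows), which scored -0.61 and -0.67 in control and -1.72 and -1.32 with auxin. Tfpi2 differed by -0.57 (adjusted p = 0.262), with groups that did not overlap.

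Igf2r (chromosome 17, 12682406 to 12769706), a maternally expressed gene in mouse whose receptor binds and clears insulin-like growth factor II, had some of the tightest scores. Its control scores were 0.89 and 0.86 and its auxin scores 0.97 and 0.90. The groups did not overlap, but the difference was 0.058 (SE 0.20), with an interval from -0.41 to 0.53 and a limma adjusted p of 0.904. The mean joins opposite ends: in the first 6 of its 16 windows by coordinate both auxin profiles lay above both controls, and in the last 5 they lay below. At its own start site the window scored 1.26 and 1.51 in control and 1.25 and 1.22 with auxin.

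Across Igf2r the score rose from 0.42 in the first window to 1.31 in the last, the largest span within any member. The organic cation transporter genes Slc22a2 and Slc22a3 on one side were later, at -0.63 ± 0.12 and -0.24 ± 0.10 in control, while Mas1, a receptor gene on the other side, was early at 2.11 ± 0.29 (SD, n = 2). Airn, the noncoding antisense RNA that starts within Igf2r and silences it in cis, overlaps Igf2r and scored 1.66 ± 0.25 in control and 1.52 ± 0.053 with auxin. With auxin the mean difference was 0.34 at Slc22a2, 0.20 at Slc22a3 and -0.20 at Mas1. These 3 coding genes had limma adjusted p values between 0.435 and 0.709.

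Nnat (chromosome 2, 157560078 to 157562525), the paternally expressed gene of a small membrane protein of the endoplasmic reticulum, replicated earlier than 96.5% of scored genes. It is 2.4 kb long and rests on 1 window. Its control scores were 2.85 and 4.55 and its auxin scores 3.64 and 3.57, so the auxin scores fell between controls that stood 1.70 apart. That gap between control replicates was wider than at 99.8% of genes. The difference of -0.092 had an interval from -1.27 to 1.09 in limma, and it was 0.76 without control replicate 2 and -0.94 without control replicate 1. Blcap, whose intron holds Nnat and which shares its window, had nearly the same scores (2.86 and 4.54 in control, 3.64 and 3.58 with auxin). Every 50-kb bin within 500 kb of Nnat was early, from 2.45 to 3.79.

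Gnas (chromosome 2, 174284320 to 174346744) had the largest difference of the 10 genes. It encodes the stimulatory G protein alpha subunit and, from other starts, transcripts expressed from the maternal or the paternal allele alone. Its control scores were 0.97 and 1.07, and its auxin scores 1.50 and 1.66. All 11 windows of Gnas had both auxin profiles above both controls. The difference was 0.56 (SE 0.20, interval 0.073 to 1.04), with an unadjusted p of 0.0298 and an adjusted p of 0.249 in limma, so it did not pass. The unadjusted p of Gnas rose above 0.05 on leaving out auxin replicate 1 (0.0691), auxin replicate 2 (0.15) or control replicate 1 (0.0837).

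The 4 Gnas starts in RefSeq span 45.7 kb and fall into 3 windows. At the most upstream start, whose sequence is given above, the scores were 1.26 and 1.28 in control and 1.58 and 1.85 with auxin. At the most downstream start they were 0.84 and 0.92 in control and 1.39 and 1.58 with auxin. The window differences were 0.44 and 0.60, and the groups lay apart at both starts.

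The difference extended over the neighbourhood of Gnas. All 10 protein-coding genes within 500 kb were higher on average with auxin, with a median difference of 0.51, and in 8 of them the groups did not overlap, against 23.9% of all genes apart in this direction. They lie along one stretch of the profile, where scores of adjoining windows run together, so they are not separate observations. Nelfcd, which encodes a subunit of the negative elongation factor, had the largest difference among neighbours with at least 3 windows, from 0.94 ± 0.20 to 1.46 ± 0.078 (SD, n = 2, limma adjusted p = 0.281). Of the 22 bins of 50 kb around the locus, 21 were higher with auxin and 18 lay apart, against 26.4% of bins genome-wide apart in this direction. In limma 0 of these bins passed (8 with a p below 0.05 before adjustment), while a trended, robust variance gave 3, among them 1 of the 2 bins over Gnas (174300001 to 174350000, 0.96 ± 0.060 to 1.55 ± 0.10, adjusted p = 0.0402). The other bin over Gnas, which holds its most upstream start, did not (174250001 to 174300000, adjusted p = 0.279). Over all bins 21.7% had such a p before adjustment and 10.8% passed with that variance.

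Impact (chromosome 18, 12954690 to 12992950), a paternally expressed gene whose protein restrains the translation kinase Gcn2, scored 0.28 and 0.43 in control and 0.33 and 0.45 with auxin. The groups overlapped, and the difference of 0.033 had a limma interval from -0.45 to 0.52. Further upstream the groups lay apart. The bin at 12550001 to 12600000 scored 0.28 ± 0.26 in control and 1.24 ± 0.29 with auxin (SD, n = 2, adjusted p = 0.0651 in limma and 0.00188 with a trended, robust variance). Ttc39c, a tetratricopeptide repeat gene of that stretch, went from 0.61 ± 0.13 to 1.17 ± 0.14 (limma adjusted p = 0.254).

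**Figure D2:**
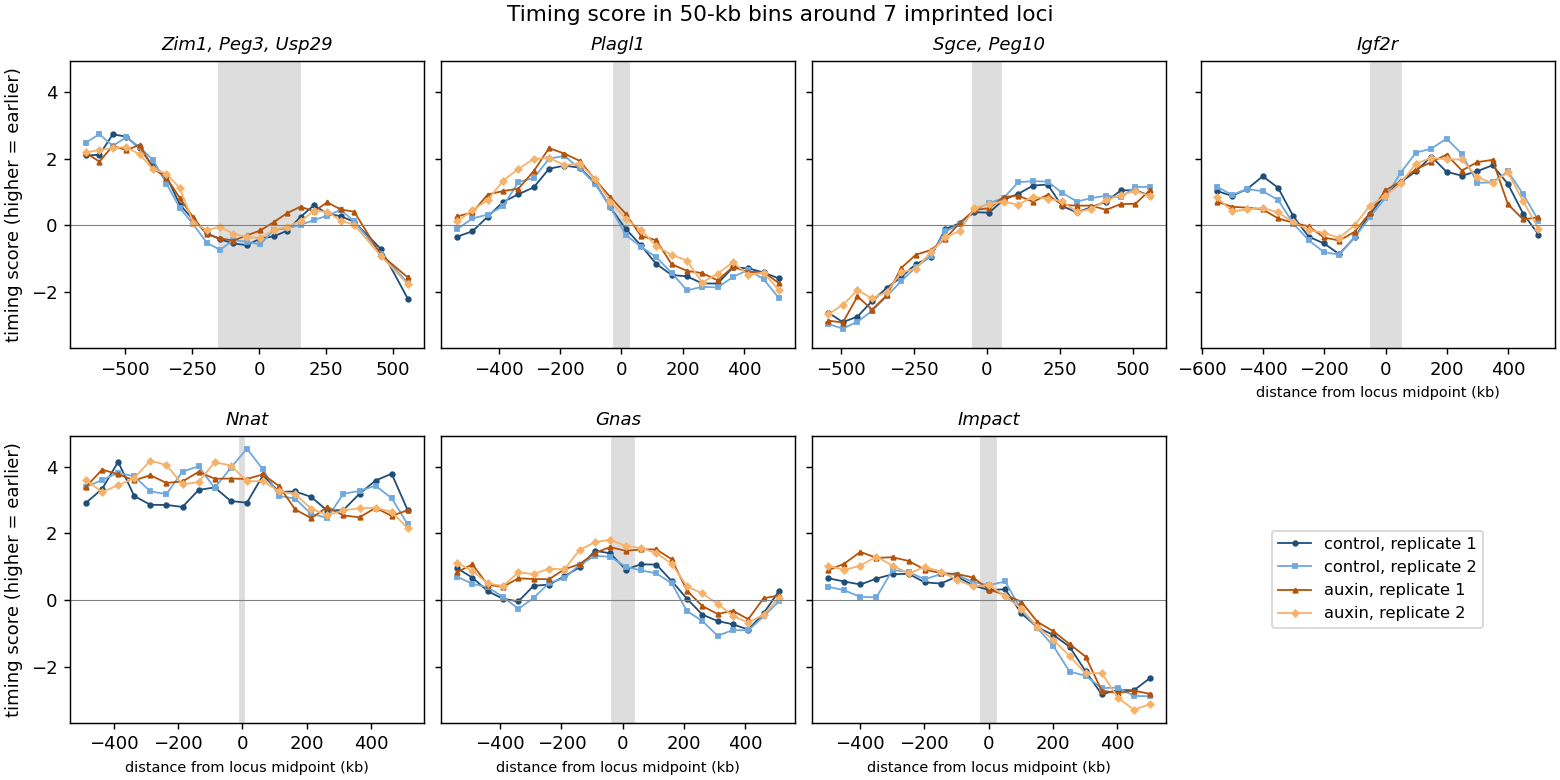
Timing score (vertical axis, score units) in 50-kb bins with at least 3 windows against distance from the locus midpoint (kb), from 500 kb before to 500 kb after each locus, with 1 line per profile and the members shaded. Plagl1, Igf2r, Impact and the Sgce and Peg10 pair lie on slopes, and Nnat lies on an early plateau. Around Gnas the mean of the auxin lines is above that of the control lines in 21 of 22 bins.

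Considered together, the 10 members gave 0 calls in limma with Benjamini-Hochberg adjustment over all genes, where 0.0% of the 21078 genes passed. Since this fit called no gene at all, a count of 0 says nothing particular about the members. Their adjusted p values ran from 0.249 to 0.952. Before adjustment 1 member, Gnas, had a p below 0.05 and was higher with auxin, against 17.1% of all genes (7.63% earlier and 9.5% later). Which members fell below 0.05 changed when single profiles were left out, and Gnas did so only in part of these fits. No share over all genes is given for them. The difference of Gnas then ran from 0.47 to 0.64, and that of Nnat from -0.94 to 0.76. With a trended, robust variance the members again gave 0 calls, with 5.3% of all genes called (2.01% earlier and 3.3% later). Using a fixed 200-kb span around each gene, 0 members and 6.93% of genes passed. Leaving out control replicate 1, 0 members and 0.00474% of genes passed. With both at least 3 windows and a trended, robust variance, a combination added after seeing the data, 1 of 9 members passed, Gnas (adjusted p = 0.0472 in limma), where 10.7% of 12983 genes did.

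Mean scores were higher with auxin in 9 of 10 genes, against 49.9% of all genes, and the groups did not overlap in 5, all toward earlier, against 23.9% of all genes in that direction and 25.9% toward later. Their median difference was 0.13, against -0.00049 over all genes, and their median absolute difference was 0.13, against 0.28. Members at one locus share a domain, so the 10 genes stand for 7 loci at most. For Nnat, Sgce and Impact the sign turned when single profiles were left out.

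**Figure D3:**
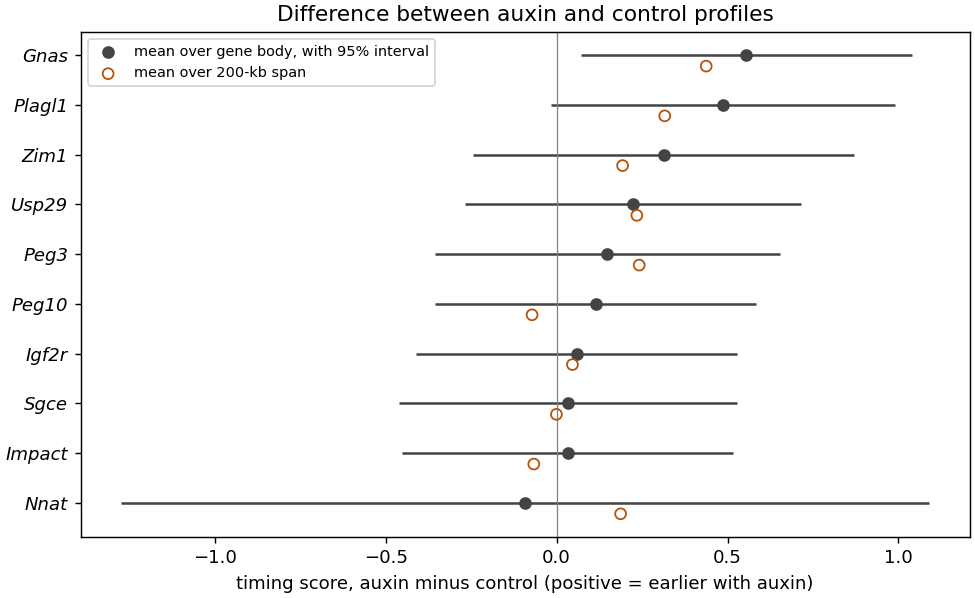
Difference in timing score between auxin and control means (horizontal axis, score units, positive is earlier with auxin) for each member, ordered by size. Filled points are gene bodies with the 95% limma interval, open points the 200-kb span around the gene: the interval of Gnas (0.073 to 1.04) lies above 0, and those of the other 9 members include it.

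Around the 7 loci, 154 bins of 50 kb were tested. In limma 0 of them passed, with 1.66% of all 42710 bins called (0.637% earlier and 1.02% later), and the smallest adjusted p was 0.0607. Before adjustment 29 had a p below 0.05, against 21.7% of all bins. The count of 29 was lower whichever single profile was left out, and no such share over all bins is given for those fits. With a trended, robust variance 10 of the 154 passed, 7 earlier and 3 later, where 10.8% of all bins passed, 5.17% earlier and 5.66% later. With the replicate number as a block 4 passed, where 5.52% of all bins did. No bin around the loci passed when bins with any window were kept (0.00208% of all bins called) or without control replicate 1 (0.297%). The 3 later bins adjoin each other near the kinase gene Map3k4, which lies at lower coordinates than Igf2r and went from 1.07 ± 0.047 to 0.50 ± 0.067 (SD, n = 2, limma adjusted p = 0.24). Of the 19 bins over members, 11 lay apart toward earlier and 0 toward later, against 26.4% and 26.1% of all bins. Bins of one locus adjoin each other and are not separate observations: the Peg3 locus alone holds 7 of the 19 and 5 of the 11. The authors' deposited lists of 85 changed regions, 63 later and 22 earlier, overlap 0 of the 7 loci. The share of the genome in these regions is not given here, and the authors' rule for choosing them was not applied to the loci. A count of 0 therefore says nothing particular about the loci. The region nearest to any of them begins at 153972000 on chromosome 2, 3.5 Mb from Nnat, and none is listed on chromosome 18.

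Most members lie close to a place where timing passes from the early to the late side. The nearest point at which the mean profile crosses 0 was within 500 kb of 9 of the 10 genes, Nnat being the exception at 1361 kb, against 45% of all genes. The median distance was 90.7 kb, against 591 kb over all genes. Members of a locus share such a point, and no test was run on these distances. The distances are not separate from the levels, since a score near 0 on a smooth profile itself lies near a crossing. Of the 10 members 5 were middle, against 9.02% of all genes. Without regard to sign, the slope was smallest at Gnas (-0.063 per 100 kb) and largest at Plagl1 (-0.88). Its median size was 0.32, against 0.20 over all genes.

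The crossing point itself was followed in each profile at the 6 loci that have one. In kb from its position in the 4-profile mean, at Plagl1 it lay at -12.3 and -21.4 in control and at 21.9 and 25.7 with auxin. Downstream of Gnas it lay at -9.7 and -33.6 in control and at 16.7 and 67.7 with auxin. At both loci the early side thus reached further with auxin, by 40.7 and 63.8 kb on average. Near Igf2r the crossing differed by -19.3 kb, again extending the early side, with groups that did not overlap. By the Sgce and Peg10 pair it differed by 14.9 kb and near Impact by -1.4 kb, with groups that overlapped. At the shallow Usp29 slope it lay at 25.8 and 49.4 kb in control and at -62.9 and 17.8 kb with auxin, so the 2 auxin profiles stood far from each other. These positions are interpolated between bins of 50 kb and are described without a test. These measures of crossing, distance and slope were chosen after the profiles were seen.

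**Figure D4:**
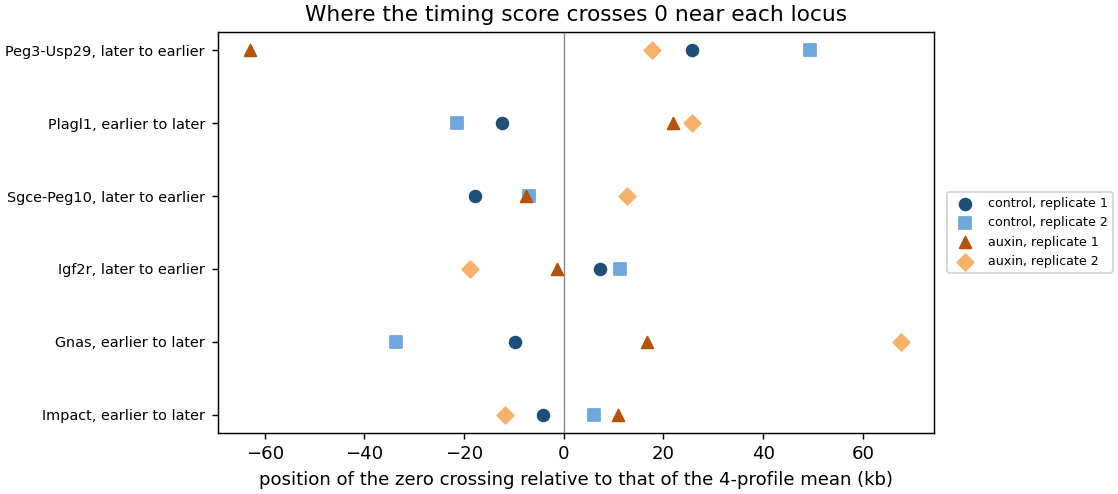
Position at which the timing score crosses 0 near each locus in each profile, in kb relative to the crossing of the 4-profile mean (horizontal axis), with 1 symbol per profile. Control and auxin symbols are apart at Plagl1, Gnas, Igf2r and Usp29, and mixed at Impact and at the Sgce and Peg10 pair.

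Other imprinted genes, also listed with earlier results of these data known, served as a comparison. At the same loci, 14 further coding genes had a value, and 0 passed in limma (2 with a p below 0.05 before adjustment, both later with auxin). Of these 14, 4 were higher with auxin and 10 lower, with a median difference of -0.15, unlike the members. The groups lay apart toward earlier in 2 and toward later in 6, against 23.9% and 25.9% of all genes. Most of the 14 share the Peg10 domain, so they are not separate observations. With a trended, robust variance 1 of them, Dlx5, was called later. At other imprinted loci 51 genes had a value, with 0 called in limma, although 16 had a p below 0.05 before adjustment (31.4%, against 17.1% of all genes). The trended, robust variance called 4 of them earlier and 7 later, where it called 2.01% and 3.3% of all genes. Their median absolute difference was 0.36, against 0.13 for the members and 0.28 for all genes. The 3 with the largest differences whose groups lay apart were Peg12 (-1.81 ± 0.28 to -2.87 ± 0.024, 1 window), Dio3 (1.44 ± 0.028 to 2.42 ± 0.082, 2 windows) and Snurf (-1.91 ± 0.11 to -0.96 ± 0.076, 4 windows; SD, n = 2), each with a limma adjusted p of 0.172.

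Among the 92 coding neighbours within 500 kb of the 7 loci, 0 passed in limma, and 11 had a p below 0.05 before adjustment (12%, against 17.1% of all genes). The count of 11 changed when single profiles were left out, and no share over all genes is given for those fits. The neighbour with the largest difference was Rpn2, a subunit gene of the oligosaccharyltransferase, near Nnat, which went from 3.00 ± 0.082 to 3.96 ± 0.43 (SD, n = 2, limma adjusted p = 0.18). By the same rule the other loci gave Ltv1 near Plagl1 (0.40), Zfp583 near Peg3 (-0.33) and Gmfg-ps near Peg10 (-0.37).

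Likeness between genes was measured as the root mean square difference over the 4 profiles, among imprinted genes on other chromosomes. Peg3 and Zim1 were both nearest to Slc22a2 (0.13 and 0.19), and Usp29 to Slc22a3 (0.13). Plagl1 was nearest to Copg2 (0.15), a gene next to Mest, and Igf2r to Pon2 (0.13). Impact was the nearest gene to both Peg10 (0.27) and Sgce (0.18), and Impact itself was nearest to Trappc9 (0.17). Gnas came nearest to Slc38a4 (0.27), whereas Nnat had no close match, with Zdbf2 nearest at 0.82.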

How the data were processed

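The authors deposited replication timing scores per 6-kb window (316864 windows, 20 chromosomes), named as quantile normalized in the table's title, and sorted values are identical in all 4 columns. The submitters' processing notes name mm10 and the tools bedtools, SAMtools and Bowtie2, without versions or roles. No source used here says how early and late reads were combined. Each column's name gave its group and replicate. Depth is unknown. Gene values were means of windows over the RefSeq (GRCm38.p6) gene body, or the nearest window within 50 kb for 1064 of 21078 genes. Positions were read as window starts. The fits used limma 3.58.1 in R 4.3.3 (lmFit and eBayes, no trend, not robust), with treatment as the only term and 2 residual degrees of freedom, over all genes or over bins of 50 kb with at least 3 windows, Benjamini-Hochberg adjusted p under 0.05, two-sided. The gene fit was tested on simulated shifts under 2 noise models. With each gene's own residual SD as noise, it recovered none of the shifts. The moderated SD was tried after that outcome was seen, and then the larger shifts were mostly recovered, with a few false calls. Recovery thus depended on the noise assumed, both runs are kept, and no statement on power rests on them. SDs are over 2 profiles, for which an exact permutation test cannot go below p = 0.333. Timing classes, crossings (linear interpolation between bins) and start windows are descriptions. Named genes were all members, all same-locus imprinted genes with a value (except 1, which is counted but not reported here), the 3 largest differences at other imprinted loci and the largest per neighbourhood with at least 3 windows, groups apart in both. The bins named, the minimum of 3 windows a bin, the crossing, distance and slope measures and the start sequences of Gnas and Plagl1 were chosen after values were seen. Zfp264 and Nespas were not matched by symbol. Same-numbered replicates did not deviate together (r = 0.036 over windows). The members and lists were chosen with earlier results of these data known.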

Additional observations from a re-analysis of the deposited data

How the results depend on the processing

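Over all genes limma called 0, against 1118 with a trended, robust variance and 1470 with a 200-kb span, and 1 (0.00474%) without control replicate 1. No member passed under a single changed choice (trended and robust variance, at least 3 windows, which leaves out Nnat, replicate block, 200-kb span, median of windows, positions as window centres, and leaving out each profile), and the smallest adjusted p was then 0.0889, for Gnas with the trended, robust variance. With that variance and at least 3 windows together, Gnas passed (difference 0.5555, adjusted p = 0.0472), and 1392 genes in all. This pair of choices gave 1 of 9 members, 9 of 47 other imprinted genes and 2 of 66 neighbours (Map3k4 and Ttc39c), against 0 each. Over all genes it called 10.7%. It was at first run without being read, and like the reading of positions as window centres it was added after seeing the data. Of 108 recomputed differences of single members 9 turned their sign. The 200-kb span turned the sign of Peg10 (-0.0717), Sgce (-0.0005), Nnat (0.1873) and Impact (-0.0666). Without auxin replicate 2, Sgce stood at -0.0073 and Impact at -0.0303. Without control replicate 1 they stood at -0.0864 and -0.0441, and Nnat at -0.9412. Without control replicate 2 these 3 genes stood at 0.1522, 0.1092 and 0.7571. The range for Gnas on leaving out a profile was 0.47 to 0.64 and for Plagl1 0.38 to 0.60. Zim1 ranged from 0.117 to 0.509 and Igf2r from 0.0255 to 0.0912. Peg3 fell to 0.0012 without auxin replicate 2 and Usp29 to 0.1106 without auxin replicate 1. Of 65 other imprinted genes, 8 were called with the 200-kb span, where 6.93% of all genes were. With the trended, robust variance 12 were called, where 5.3% of all genes were, against 0 in the first fit. Of the 154 bins around the loci, 10 were called with the trended, robust variance, where 10.8% of all bins were. With the replicate block 4 were called, where 5.52% of all bins were, against 0 in the first fit. The replicate numbers are shared only as numbers. With that replicate block limma called 0 members (adjusted p = 0.277 for Gnas) and 0 genes in all, and 2358 bins (5.52%) against 707. Over all bins the trended, robust variance gave 4626 calls, medians 221 (0.517%), all bins with a window 1 (0.00208%), 100-kb bins 491 (2.11%), and leaving out a profile 0 to 127 (0.297%). The cause of these differences was not tested. Low window numbers limit Nnat (1) and Peg10 (3) most.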
